A study of Homo sapiens with 12 samples.

Results

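Eph receptors and ephrins are cell-surface proteins through which touching cells signal to each other, and their transcripts are described here in EP300 knockdown and control lines of MCF10AT. The set holds 10 genes given by name and chosen with earlier results of these data known. They are the receptors EPHA1, EPHA2, EPHA4, EPHB2, EPHB3 and EPHB4 and the ligands EFNA1, EFNA5, EFNB1 and EFNB2. Each had 1 row among the 29094 RefSeq accession rows of the count table, and all 10 passed the filter on low counts that left 13424 genes for testing. A further 12 genes of the family are accounted for after them.

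The cells, MCF10AT, are a long-used mammary epithelial line of human origin carrying HRasG12V as the transforming oncogene, so the oncogene was present in every group. The EP300 KD1 and EP300 KD2 lines expressed shRNAs against EP300, an acetyltransferase and transcriptional coactivator also called p300. The NS1 and NS2 lines expressed non-silencing controls. The hairpins had been delivered by lentivirus and kept by puromycin selection, with 3 libraries per line and 12 in all. How many transductions lie behind a line is not given in the labels, and a line's own history and its hairpin cannot be told apart. Which control belongs to which hairpin is not named in the labels, so each EP300 line was set against the non-silencing line with its own number.

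In the Eph system, receptor tyrosine kinases on one cell bind ephrins on a neighbouring cell. A ephrins are held in the membrane by a lipid anchor and mainly bind EphA receptors, and B ephrins span the membrane and mainly bind EphB receptors, with some crossing between the classes. Binding signals in both directions, forward through the receptor's kinase and in reverse through the ephrin, and the output is usually on the cytoskeleton, adhesion and the sorting of cells at boundaries. In breast epithelium EPHA2 and its ligand ephrin-A1 have been tied to cell contacts made by E-cadherin, and EPHB4 and ephrin-B2 to epithelial and vascular patterning of the gland.

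The depth was 31396653 to 35024772 counts per library in EP300 KD1 and 32674926 to 45606950 in NS1, and it was 31582157 to 40700951 in EP300 KD2 and 32112613 to 33951970 in NS2. Levels are in CPM, that is, counts scaled to the library's size, here after TMM, a factor that corrects each library for its composition, and errors are SDs over 3 libraries. EP300 itself was at 108, 106 and 108 CPM in EP300 KD1, against 171, 177 and 167 CPM in NS1. It was at 95.1, 99.9 and 92.3 CPM in EP300 KD2, against 165, 180.3 and 177 CPM in NS2. Its log2 fold changes were -0.68 ± 0.03 (SE) and -0.86 ± 0.04, with adjusted p-values of 2.6e-12 and 1.1e-13 by edgeR's quasi-likelihood test.

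Of the markers of the labelled cell type, all 6 basal mammary genes (KRT5, KRT14, KRT17, TP63, ITGB4 and LAMB3) had counts in every group. Their summed level was 4054 to 4270 CPM in EP300 KD1, against 5160 to 5405 CPM in NS1, and 2995 to 3132 CPM in EP300 KD2, against 6184 to 6319 CPM in NS2. KRT14 was scarce, with group means of 0.136 to 1.03 CPM. In EP300 KD1, 5 of the 6 were called lower, and LAMB3 was called higher, at 1065 CPM, against 573 CPM in NS1. All 6 were called lower in EP300 KD2. The 5 general epithelial markers, mostly KRT18, summed to 1322 to 1367 CPM in EP300 KD1, against 2043 to 2075 CPM in NS1, and to 1591 to 1598 CPM in EP300 KD2, against 2172 to 2186 CPM in NS2. Of these, 4 were called lower in EP300 KD1 and KRT8 was called higher (0.59), at 3.32 CPM, against 2.20 CPM in NS1. In EP300 KD2, 4 were called lower and KRT8 was not called (0.07). The 7 fibroblast markers summed to 59.6 to 63.9 CPM in EP300 KD1, against 16.4 to 17.8 CPM in NS1. In EP300 KD2 they summed to 20.7 to 22.4 CPM, against 13.1 to 14.3 CPM in NS2. The collagen genes COL1A2 and COL3A1 and the gene LUM were at 0 in every group. The 3 tested, COL1A1, PDGFRB and DCN, were all called higher in EP300 KD1, with log2 fold changes of 0.86 to 2.57. In EP300 KD2, COL1A1 and DCN were called higher, DCN by 1.25, and PDGFRB was not called (-0.19). The 7 endothelial markers summed to 13.9 to 16.3 CPM in EP300 KD1, against 29.0 to 33.0 CPM in NS1, and to 6.54 to 7.49 CPM in EP300 KD2, against 38.8 to 40.8 CPM in NS2, with CLDN5 at 0 throughout and CDH5 at 0 in both EP300 lines. Most of that sum was PECAM1, at 9.67 CPM in EP300 KD1, against 29.3 CPM in NS1, and 5.38 CPM in EP300 KD2, against 38.7 CPM in NS2. The other 3 endothelial markers tested, TEK, KDR and ESAM, were called higher in EP300 KD1, with TEK at 4.14 CPM, against 0.246 CPM in NS1, and TEK was called higher in EP300 KD2. The 7 leukocyte markers summed to 29.3 to 30.8 CPM in EP300 KD1, against 41.2 to 50.1 CPM in NS1, and to 15.6 to 16.3 CPM in EP300 KD2, against 46.4 to 51.2 CPM in NS2, with PTPRC at 0 in EP300 KD1 and NS2. The 7 neural markers, mostly TUBB3, summed to 105 to 117 CPM in EP300 KD1, against 57.1 to 63.3 CPM in NS1, and to 117 to 125 CPM in EP300 KD2, against 42.8 to 44.0 CPM in NS2, with RBFOX3 and STMN2 at 0. Of the 3 neural markers tested, 1 was called higher and 1 lower in EP300 KD1, with log2 fold changes from -0.57 for MAP2 to 1.01 for TUBB3. In EP300 KD2, 2 were called higher and 0 lower. The marker sums moved with the knockdown, and their part in the results on Eph receptors and ephrins was not tested.

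The promoters of 3 receptor genes are shown because these receptors carry the main pattern: EPHB2 was higher with both hairpins, and EPHB3 and EPHA2 were lower with both. The lines give the 250 bases before the gene start in RefSeq's annotation of GRCh38.p14, 5′ to 3′ on the gene's strand. Capitals mark any match to 6 motifs searched on both strands: TGANTCA (AP-1), CACCTG (the E-box of ZEB and SNAI factors), AACCNGTT (grainyhead), GGAATG (TEAD), CCAAT (NF-Y) and, for NF-kB, GGG and CC with any 5 bases between. Neighbouring matches can run together or overlap in 1 capital run.
EPHB2, chr1:22710588-22710837, plus strand: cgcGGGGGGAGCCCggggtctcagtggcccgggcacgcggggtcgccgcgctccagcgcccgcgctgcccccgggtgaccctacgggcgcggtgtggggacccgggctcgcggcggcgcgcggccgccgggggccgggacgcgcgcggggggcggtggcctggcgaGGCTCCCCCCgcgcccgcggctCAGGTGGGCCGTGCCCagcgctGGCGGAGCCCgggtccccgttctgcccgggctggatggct
EPHB3, chr3:184561535-184561784, plus strand: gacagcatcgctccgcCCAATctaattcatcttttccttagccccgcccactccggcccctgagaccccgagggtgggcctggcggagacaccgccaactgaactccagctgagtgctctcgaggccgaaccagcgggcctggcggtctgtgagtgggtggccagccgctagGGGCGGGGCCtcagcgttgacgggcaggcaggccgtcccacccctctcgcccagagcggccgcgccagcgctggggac
EPHA2, chr1:16156070-16156319, minus strand: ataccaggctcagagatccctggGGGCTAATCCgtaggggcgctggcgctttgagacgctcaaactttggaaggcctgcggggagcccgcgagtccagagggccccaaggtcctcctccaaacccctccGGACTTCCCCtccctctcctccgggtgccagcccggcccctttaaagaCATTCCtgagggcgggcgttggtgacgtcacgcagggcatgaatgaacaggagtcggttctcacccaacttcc

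In these windows, the EPHB2 promoter held the E-box letters, starting 62 bases before the gene start, and the EPHA2 promoter held the TEAD letters, starting 73 bases before it. The EPHB3 promoter held the NF-Y letters, starting 234 bases before the gene start. Over windows of 300 bases that also take in the first 50 bases of the gene, 3 of the 10 genes held the E-box (EPHA1, EPHB2 and EFNB2), against 20.6% of 35116 promoters and 18.6% of the 10283 of tested genes. The NF-Y letters were in 5 of the 10, against 34.6% of all promoters and 36.8% of those of tested genes. The degenerate NF-kB letters were in 7 of the 10, against 58.7% of all promoters and 72.9% of those of tested genes. The TEAD letters were in EPHA2 alone of the 10, against 14.0% and 10.8%. Neither the AP-1 letters (7.7% and 5.0%) nor the grainyhead letters (1.7% and 1.4%) occurred in any of the 10 windows. The EPHB2 window was 83.0% G or C, the EPHB3 window 69.0% and the EPHA2 window 64.3%, against a median of 58.7% over all promoters. A match is a description of letters and not a bound site. The transcript counted for EPHB2 starts 132 bases inside the gene start and that for EPHB3 1 base outside it, and for EPHA2 no start was paired with the counted accession.

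EPHB2 had the highest fold change of the 10 genes with either hairpin. This receptor (NM_004442, chromosome 1, 22710838 to 22921500, hg38) binds B ephrins and is known for repulsion and positioning of cells in the nervous system and the gut epithelium. It was at 87.2, 94.3 and 91.7 CPM in EP300 KD1, against 31.2, 30.9 and 29.1 CPM in NS1. The EP300 KD2 libraries held EPHB2 at 70.6, 70.3 and 70.0 CPM, against 30.5, 30.5 and 32.1 CPM in NS2. All 6 knockdown libraries lay above all 6 control libraries, with no overlap. EPHB2 rose 3.01-fold in EP300 KD1 (log2 fold change 1.59 ± 0.04, SE; adjusted p = 1.61e-17, edgeR) and 2.27-fold in EP300 KD2 (1.18 ± 0.04; adjusted p = 2.74e-15, edgeR). Because these are bulk samples, fewer cells with a transcript and less of it per cell cannot be told apart, for this gene or any that follows.

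EPHB3, a second EphB receptor (NM_004443, chromosome 3, 184561785 to 184582408), moved the other way. It was at 8.86, 8.00 and 8.51 CPM in EP300 KD1, against 16.1, 15.7 and 17.6 CPM in NS1. With the second hairpin, EP300 KD2, it was at 5.40, 5.69 and 5.43 CPM, against 15.6, 15.2 and 16.5 CPM in NS2. Every knockdown library was below every control library. EPHB3 fell to 51.2% of NS1 in EP300 KD1 (-0.97 ± 0.07; adjusted p = 1.98e-10, edgeR) and to 34.9% of NS2 in EP300 KD2 (-1.52 ± 0.07; adjusted p = 6.31e-13, edgeR).

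EPHA2 (NM_004431, chromosome 1, 16124337 to 16156069) is the EphA receptor best known in breast epithelium, where it is bound by ephrin-A1. It was at 168, 184 and 165 CPM in EP300 KD1, against 264, 251 and 256 CPM in NS1. In EP300 KD2 it was at 205, 209 and 201 CPM, against 280.4, 287 and 282 CPM in NS2. The knockdown libraries lay below the controls without overlap. EPHA2 fell by 0.58 ± 0.03 on the log2 scale in EP300 KD1 (adjusted p = 1.2e-11, edgeR) and by 0.47 ± 0.03 in EP300 KD2 (adjusted p = 2.97e-10, edgeR).

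EPHB4 (NM_004444, chromosome 7, 100802565 to 100827523), whose main ligand is ephrin-B2, was at 149, 162 and 153 CPM in EP300 KD1, against 179, 168 and 179 CPM in NS1. The EP300 KD2 libraries held EPHB4 at 128, 125 and 125 CPM, against 187, 181 and 196 CPM in NS2. The EP300 KD1 libraries lay just under those of NS1, and the EP300 KD2 libraries well under those of NS2, with no overlap in either pair. EPHB4 fell by 0.18 ± 0.03 on the log2 scale in EP300 KD1 (adjusted p = 0.000143, edgeR) and by 0.58 ± 0.03 in EP300 KD2 (adjusted p = 3.61e-11, edgeR).

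EPHA4 (NM_004438, chromosome 2, 221418027 to 221574202), a receptor that binds ephrins of both classes, was scarce. It was at 1.67, 1.52 and 1.31 CPM in EP300 KD1, from 150 counts in all, against 3.91, 4.70 and 4.35 CPM in NS1, from 484 counts. With the second hairpin, EP300 KD2, it was at 0.785, 0.934 and 1.17 CPM, from 105 counts, against 1.67, 1.66 and 1.54 CPM in NS2, from 158 counts. The groups of each pair did not overlap, but the NS2 libraries were at the level of EP300 KD1. EPHA4 fell in both pairs, by 1.53 ± 0.14 on the log2 scale in EP300 KD1 (adjusted p = 1.31e-08, edgeR) and by 0.77 ± 0.16 in EP300 KD2 (adjusted p = 0.000555, edgeR). The call in EP300 KD1 depended on its control: set against NS2 in place of NS1, the log2 fold change was -0.12 (adjusted p = 0.535, edgeR), and set against both controls together it was -0.82 (adjusted p = 1.74e-05, edgeR). For EP300 KD2 these values were -2.18 against NS1 and -1.47 against both controls.

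EPHA1 (NM_005232, chromosome 7, 143391129 to 143408856), the founding member of the receptor family, was nearly level. It was at 29.4, 28.3 and 27.6 CPM in EP300 KD1, against 28.0, 27.6 and 27.4 CPM in NS1, and these groups overlapped. In EP300 KD2 it was at 27.4, 26.7 and 28.2 CPM, against 30.0, 31.1 and 28.6 CPM in NS2, without overlap. In EP300 KD1 the log2 fold change was 0.04, with a 95% interval of -0.04 to 0.12 (adjusted p = 0.391, edgeR), and in EP300 KD2 it was -0.13 ± 0.04 (adjusted p = 0.0111, edgeR). The small fall in EP300 KD2 lost its call in 8 of 24 alternative settings, among them the fits without replicate 2 of NS2 (-0.09; adjusted p = 0.0942, edgeR), without replicate 2 of EP300 KD2 (-0.10; adjusted p = 0.0584) and when libraries were scaled by their totals alone (-0.06; adjusted p = 0.221).

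**Figure D1:**
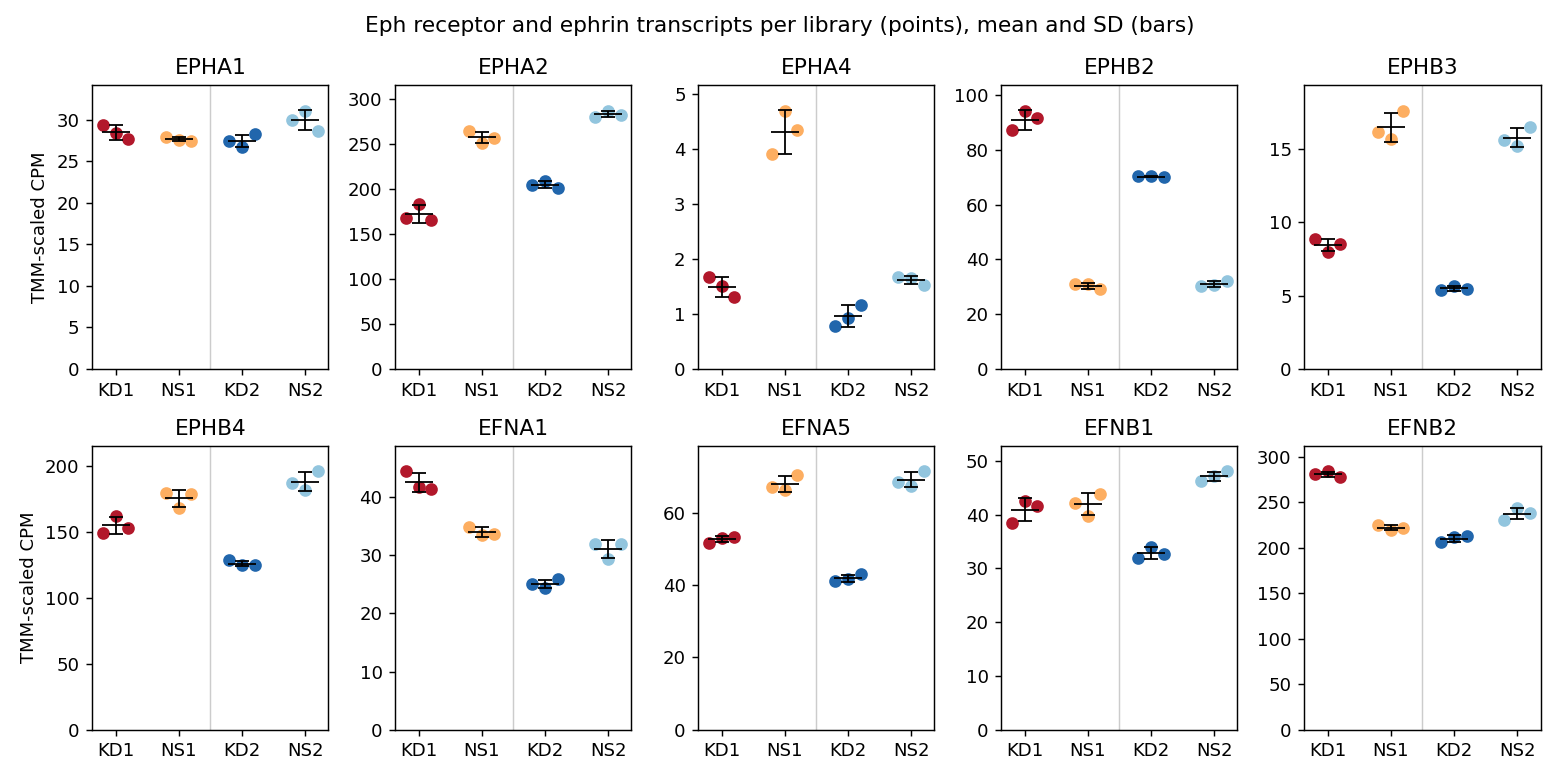
TMM-scaled CPM (vertical axes, each starting at 0) of the 10 genes in each library of EP300 KD1, NS1, EP300 KD2 and NS2; points are libraries, and bars are the mean and SD of 3. EPHB2 stands between 70.0 and 94.3 CPM in the knockdown libraries and at no more than 32.1 CPM in the controls, whereas EFNA1 and EFNB2 lie above NS1 in EP300 KD1 and below NS2 in EP300 KD2.

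Among the ligands, EFNA1 and EFNB2 went in opposite directions with the 2 hairpins. EFNA1 (NM_004428, chromosome 1, 155127876 to 155134899), which encodes the EPHA2 ligand ephrin-A1, was at 44.4, 41.8 and 41.5 CPM in EP300 KD1, against 35.0, 33.5 and 33.7 CPM in NS1. The EP300 KD2 libraries held EFNA1 at 25.1, 24.5 and 25.9 CPM, against 31.9, 29.3 and 32.0 CPM in NS2. The EP300 KD1 libraries were the highest of the 12 and the EP300 KD2 libraries the lowest. EFNA1 rose by 0.32 ± 0.04 on the log2 scale in EP300 KD1 (adjusted p = 9.6e-07, edgeR) and fell by 0.31 ± 0.04 in EP300 KD2 (adjusted p = 5.97e-06, edgeR).

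EFNB2 (NM_004093, chromosome 13, 106489745 to 106535662), which encodes the EPHB4 ligand ephrin-B2, was likewise highest in EP300 KD1 and lowest in EP300 KD2. It was at 281, 284 and 278 CPM in EP300 KD1, against 225, 219 and 222 CPM in NS1. With the second hairpin, EP300 KD2, it was at 206, 212 and 213 CPM, against 231, 244 and 238 CPM in NS2. Neither pair overlapped. EFNB2 rose by 0.34 ± 0.02 on the log2 scale in EP300 KD1 (adjusted p = 4.3e-10, edgeR) and fell by 0.18 ± 0.02 in EP300 KD2 (adjusted p = 4.81e-06, edgeR). Set against NS1 in place of NS2, the log2 fold change in EP300 KD2 was -0.08 (adjusted p = 0.00951, edgeR). In GENCODE 29, 26.2% of EFNB2's exon bases are also exon of an antisense gene, AL138689.2. The strand setting of the counting is not given in the sources used here, so reads of the 2 genes cannot be told apart there.

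EFNA5 (NM_001962, chromosome 5, 107376894 to 107670937), which encodes ephrin-A5, a ligand of EphA receptors that also binds EPHB2, was at 51.8, 53.0 and 53.4 CPM in EP300 KD1, against 67.2, 66.4 and 70.6 CPM in NS1. In EP300 KD2 it was at 41.1, 41.7 and 43.0 CPM, against 68.6, 67.4 and 71.5 CPM in NS2. All knockdown libraries were below all controls. EFNA5 fell by 0.37 ± 0.03 on the log2 scale in EP300 KD1 (adjusted p = 1.19e-08, edgeR) and by 0.72 ± 0.03 in EP300 KD2 (adjusted p = 1.02e-12, edgeR).

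EFNB1 (NM_004429, chromosome X, 68829021 to 68842160), which encodes the EphB ligand ephrin-B1, was at 38.5, 42.6 and 41.7 CPM in EP300 KD1, against 42.2, 39.8 and 43.8 CPM in NS1, with overlap. The EP300 KD2 libraries held EFNB1 at 31.9, 33.9 and 32.7 CPM, against 46.3, 47.1 and 48.0 CPM in NS2, with none. The log2 fold change in EP300 KD1 was -0.04, with a 95% interval of -0.13 to 0.05 (adjusted p = 0.463, edgeR). EFNB1 fell by 0.52 ± 0.04 in EP300 KD2 (adjusted p = 4.11e-09, edgeR). In EP300 KD1 it passed the threshold against both controls together (-0.12; adjusted p = 0.00789, edgeR) and against NS2 (-0.20; adjusted p = 0.000391), since EFNB1 was higher in NS2 than in NS1.

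With the threshold of 0.05 on the adjusted p over all 13424 genes, 8 of the 10 genes were called in EP300 KD1, where 64.9% of all genes tested were. EPHB2, EFNA1 and EFNB2 were higher and EPHA2, EPHA4, EPHB3, EPHB4 and EFNA5 lower, beside 32.6% of all genes higher and 32.3% lower. In EP300 KD2 all 10 were called, EPHB2 higher and the other 9 lower, where 57.8% of all genes were called, 27.9% higher and 29.9% lower. With library totals alone as the scaling, the split over all genes in EP300 KD2 was 4979 higher and 3144 lower, in place of 3744 and 4018, and 9 of the 10 members were called. The 10 genes had a median log2 fold change of -0.11 in EP300 KD1, beside -0.01 over all genes, and of -0.49 in EP300 KD2, beside -0.00. Calls of any size were common in this table, and the count in EP300 KD1 lay close to the share over all genes. A change of at least 2-fold was less common, at 10.2% of genes in EP300 KD1, where EPHB2 and EPHA4 passed it, and 8.08% in EP300 KD2, where EPHB2 and EPHB3 did.

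Across both hairpins, EPHA2, EPHA4, EPHB3, EPHB4 and EFNA5 were lower in both comparisons, as were 17.3% of all genes. EPHB2 was higher in both, as were 15.3% of all genes. EFNA1 and EFNB2 were called in opposite directions, as were 11.2% of all genes. The hairpins were set against separate control libraries, matched by number and not by the labels, and all 4 groups shared 1 fit.

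**Figure D2:**
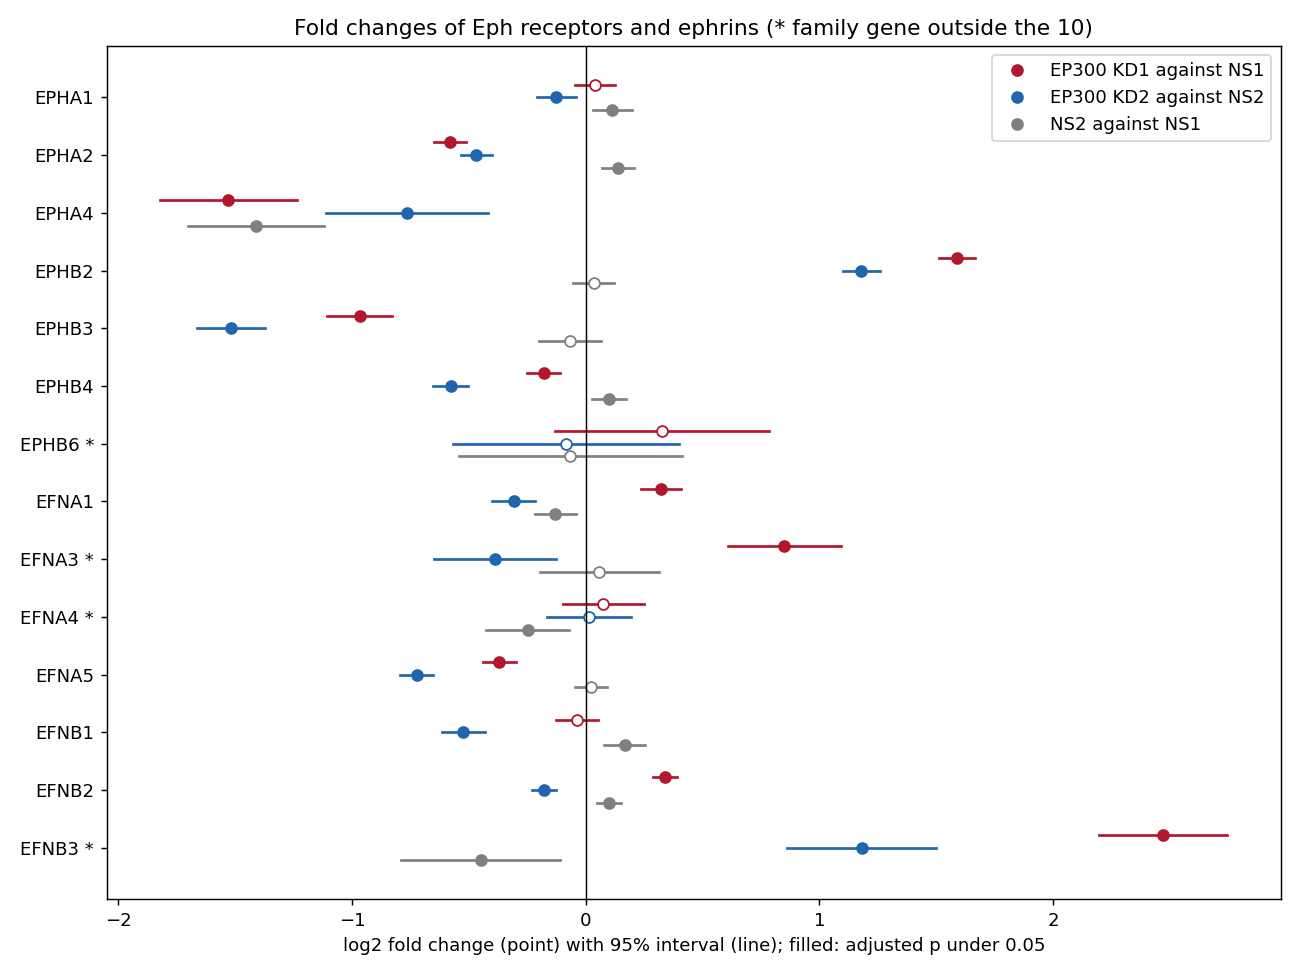
Log2 fold changes (horizontal axis) of the 10 genes and of the tested family genes outside them for each EP300 line against its control and for NS2 against NS1; points are estimates, lines 95% intervals, and filled points passed the adjusted p of 0.05. EPHB2 and EFNB3 lie to the right of 0 with both hairpins, EPHB3, EPHA2 and EFNA5 to the left with both, and EPHA4 alone of the 10 is far from 0 between the controls, at -1.41.

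The difference between the hairpins was tested as a contrast, the log2 fold change in EP300 KD2 minus that in EP300 KD1, and uses all 4 groups. It passed for 9 of the 10 genes, 1 above 0 and 8 below, beside 50.8% of all genes, 21.6% above 0 and 29.2% below. None of the 10 differed by 2-fold or more, as 5.71% of all genes did. With library totals as the scaling the split of all genes was 3780 higher and 3117 lower, in place of 2903 and 3915. The value was below 0 for 8 genes: it was -0.63 ± 0.06 for EFNA1 (adjusted p = 5.03e-08, edgeR), -0.55 ± 0.10 for EPHB3 (9.43e-05), -0.52 ± 0.03 for EFNB2 (4.91e-10) and -0.49 ± 0.06 for EFNB1 (1.93e-06). It was -0.41 ± 0.05 for EPHB2 (adjusted p = 3.36e-06, edgeR), -0.40 ± 0.05 for EPHB4 (1.53e-06), -0.35 ± 0.05 for EFNA5 (5.17e-06) and -0.17 ± 0.06 for EPHA1 (0.0197). So the gain of EPHB2 was smaller in EP300 KD2, and the falls of EPHB3, EPHB4 and EFNA5 were larger there. EPHA4 had a value above 0, 0.76 ± 0.22 (adjusted p = 0.00675, edgeR), since its fall against the control of the same number was larger in EP300 KD1. This order rests on the pairing of controls. Set against both controls together, the log2 fold change of EPHA4 was -0.82 in EP300 KD1 and -1.47 in EP300 KD2. For EPHA2 the difference was 0.11, with a 95% interval of 0.02 to 0.21, and missed the threshold (adjusted p = 0.0506, edgeR). It passed in 13 of 21 alternative settings. Among them were all changes of scaling, filter, accession rows, replicate block or model. These ran from 0.11 with limma-voom (adjusted p = 0.043) to 0.18 with library totals (adjusted p = 0.0032, edgeR). The others were the fits without replicate 2 of EP300 KD1 (0.16; 0.00122), replicate 2 of NS1 (0.13; 0.0278), replicate 2 of NS2 (0.13; 0.0453) and replicate 3 of EP300 KD2 (0.12; 0.0474). The call for EPHA1 was lost without replicate 3 of NS1 (-0.15; 0.0506), replicate 2 of NS2 (-0.13; 0.0731), replicate 1 of EP300 KD1 (-0.14; 0.0566) or replicate 2 of EP300 KD2 (-0.15; 0.0532). It was also lost with upper-quartile factors (-0.14; 0.0501), library totals (-0.10; 0.152), no filter (-0.11; 0.196) and DESeq2 (-0.15; 0.136).

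The 2 control lines differed from each other in part of the family, and the NS1 and NS2 libraries enter these values as well as the hairpin comparisons. In NS2 against NS1, 7 of the 10 genes were called, beside 27.5% of all genes, with 5 higher and 2 lower, beside 14.2% and 13.4%. EPHA4 had the widest gap, -1.41 ± 0.14 on the log2 scale (adjusted p = 3.78e-07, edgeR), which ranked 92 of 13424 genes by size, and was alone among the 10 in passing 2-fold, as 1.3% of all genes did. Its gap between the controls was thus near the size of its fall in EP300 KD1. The other 6 called gaps were small, from -0.13 ± 0.04 for EFNA1 (adjusted p = 0.0262, edgeR) to 0.17 ± 0.04 for EFNB1 (0.00589), with EPHA1 at 0.11 (0.0412), EPHA2 at 0.14 (0.00309), EPHB4 at 0.10 (0.0342) and EFNB2 at 0.10 (0.00556). Those of EPHA1, EPHB4 and EFNA1 depended on single libraries and on the processing, and were lost in 11, 5 and 3 of 22 alternative settings. Upper-quartile factors and library totals lost EPHA1 and EPHB4, and DESeq2 lost EPHA1 and EFNA1. EPHA1 was also lost with no filter, with the replicate block and with only the groups compared. Without replicate 1, 2 or 3 of NS1, or 1 or 2 of NS2, EPHA1 had adjusted p-values of 0.0673 to 0.194 (edgeR). EPHB4 was lost without replicate 2 of NS1 (0.07; adjusted p = 0.168, edgeR), replicate 1 of NS2 (0.11; 0.0646) or replicate 3 of NS2 (0.07; 0.174). EFNA1 was lost without replicate 1 of NS1 (-0.11; adjusted p = 0.0995, edgeR) or replicate 2 of NS2 (-0.09; 0.152). For EPHB2, EPHB3 and EFNA5 the gaps were 0.03, -0.07 and 0.02, with adjusted p-values of 0.605, 0.478 and 0.686.

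To order the genes by level, CPM was divided by the length of the counted transcript in kilobases (CPM per kb), or of the longest transcript for EPHA2, whose accession had no length of its own. EPHA2 was the highest receptor in every group, at 43.4 CPM per kb in EP300 KD1, against 64.9 in NS1, and 51.7 in EP300 KD2, against 71.4 in NS2. EPHB4 followed, at 35.8 CPM per kb in EP300 KD1, against 40.5 in NS1, and 29.1 in EP300 KD2, against 43.4 in NS2. By the length of the counted accession, EPHB2 came next in the knockdown lines, at 24.8 CPM per kb in EP300 KD1, against 8.26 in NS1, and 19.1 in EP300 KD2, against 8.44 in NS2. In both controls its libraries overlapped those of EPHA1, whose mean was 8.22 CPM per kb in NS1 and 8.89 in NS2. EPHB3, at 1.30 to 3.89 CPM per kb as group means, and EPHA4, at 0.152 to 0.681, were the lowest. With the longest transcript as its length, EPHB2 was at 8.42 CPM per kb in EP300 KD1, against 2.81 in NS1, and 6.50 in EP300 KD2, against 2.87 in NS2. On that length its libraries overlapped those of EPHA1 in EP300 KD1, were below them in EP300 KD2, and in the controls lay below those of EPHB3.

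EFNB2 was the highest ligand in every group, at 63.0 CPM per kb in EP300 KD1, against 49.8 in NS1, and 47.1 in EP300 KD2, against 53.3 in NS2. EFNA1 was second, at 22.1 CPM per kb in EP300 KD1, against 17.7 in NS1, and 13.1 in EP300 KD2, against 16.1 in NS2. EFNB1 was at 12.3 CPM per kb in EP300 KD1, against 12.6 in NS1, and 9.91 in EP300 KD2, against 14.2 in NS2. EFNA5 was at 9.88 in EP300 KD1, against 12.8 in NS1, and 7.86 in EP300 KD2, against 13.0 in NS2. In NS1 the libraries of EFNB1 and EFNA5 overlapped, and in the other 3 lines EFNB1 was the higher. EFNB2 made up 52.1% of the level per length summed over all 8 ephrins of the family in EP300 KD1, against 48.9% in NS1, and 54.9% in EP300 KD2, against 51.0% in NS2.

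EPHB2 took a larger share of the receptor level in both knockdown lines, on either transcript length. By the counted accession it made up 21.5% of the level per length summed over all 14 receptors in EP300 KD1, against 6.52% in NS1, and 17.4% in EP300 KD2, against 6.18% in NS2. With the longest transcripts these shares were 9.00% in EP300 KD1, against 2.43% in NS1, and 6.99% in EP300 KD2, against 2.30% in NS2. EPHA2 made up 37.7% in EP300 KD1, against 51.2% in NS1, and 47.0% in EP300 KD2, against 52.3% in NS2. The EphA receptors summed to 52.1 ± 2.51 CPM per kb in EP300 KD1, against 73.8 ± 1.62 in NS1, and 60.0 ± 0.750 in EP300 KD2, against 80.6 ± 1.14 in NS2 (SD, n = 3 each). The EphB receptors summed to 63.0 ± 2.48 CPM per kb in EP300 KD1, against 53.0 ± 1.53 in NS1, and 49.8 ± 0.550 in EP300 KD2, against 56.0 ± 1.98 in NS2. The EphB sums rest on the length taken for EPHB2, 3677 bases for the counted accession and 10816 for its longest transcript. With the longest transcripts the EphB sum was 41.4 ± 1.61 CPM per kb in EP300 KD1, against 41.7 ± 1.38 in NS1, and these groups overlapped. It was 33.0 ± 0.423 in EP300 KD2, against 44.1 ± 1.60 in NS2, and the EphA sums were the same as above.

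**Figure D3:**
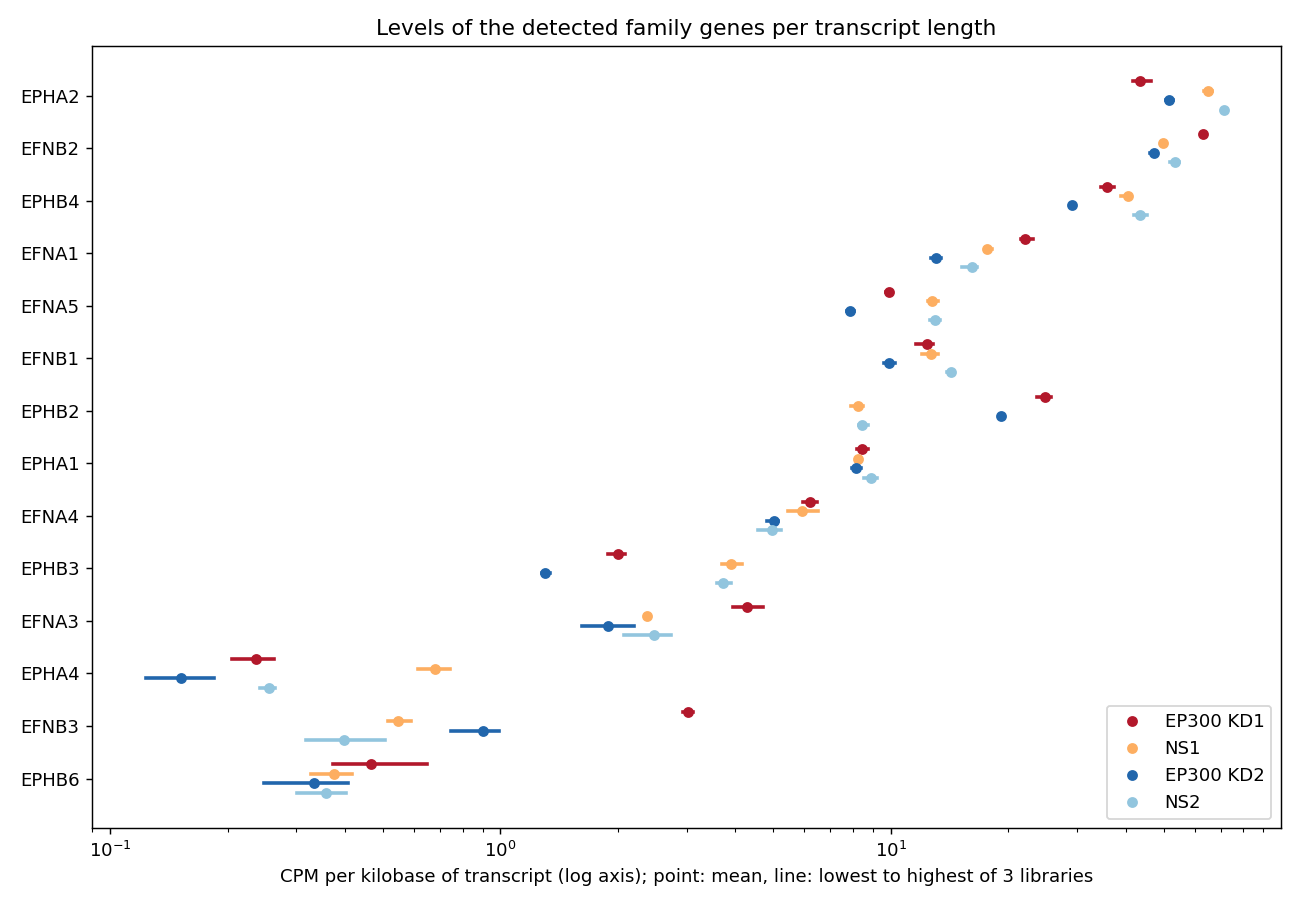
Levels of the detected family genes in CPM per kilobase of transcript (horizontal log axis) in the 4 lines; points are means and lines run from the lowest to the highest of 3 libraries. EPHA2, EFNB2 and EPHB4 are the most abundant in all lines, and EPHB2 is at 24.8 and 19.1 in the knockdown lines, against 8.26 in NS1 and 8.44 in NS2.

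Ratios of 2 transcripts within a library do not depend on how libraries are scaled; the pairs were chosen after their values were seen. There were 0.529 ± 0.0218 EPHB2 counts per EPHA2 count in EP300 KD1, against 0.118 ± 0.00468 in NS1, a 4.48-fold difference. In EP300 KD2 there were 0.343 ± 0.00587, against 0.110 ± 0.00384 in NS2, a 3.13-fold difference. For the ligand and receptor pair EFNB2 and EPHB4, there were 1.82 EFNB2 counts per EPHB4 count in EP300 KD1, against 1.27 in NS1, and 1.67 in EP300 KD2, against 1.27 in NS2. EFNB2 was thus higher relative to EPHB4 with both hairpins, although its own level rose with one and fell with the other. For EFNA1 and EPHA2 the ratio was 0.248 in EP300 KD1, against 0.132 in NS1, and 0.123 in EP300 KD2, against 0.110 in NS2. None of these 6 pairs of groups overlapped, and each gave p = 0.1 in a two-sided exact permutation test, the smallest p that 3 against 3 libraries can give. All 8 ephrins of the family summed per length, over all 14 receptors summed per length, gave 1.05 in EP300 KD1, against 0.802 in NS1, without overlap (two-sided exact permutation p = 0.1). This ratio was 0.781 in EP300 KD2, against 0.765 in NS2, with overlap (two-sided exact permutation p = 0.3). With the longest transcripts it was 0.869 in EP300 KD2, against 0.793 in NS2, without overlap (p = 0.1 in the same exact test).

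**Figure D4:**
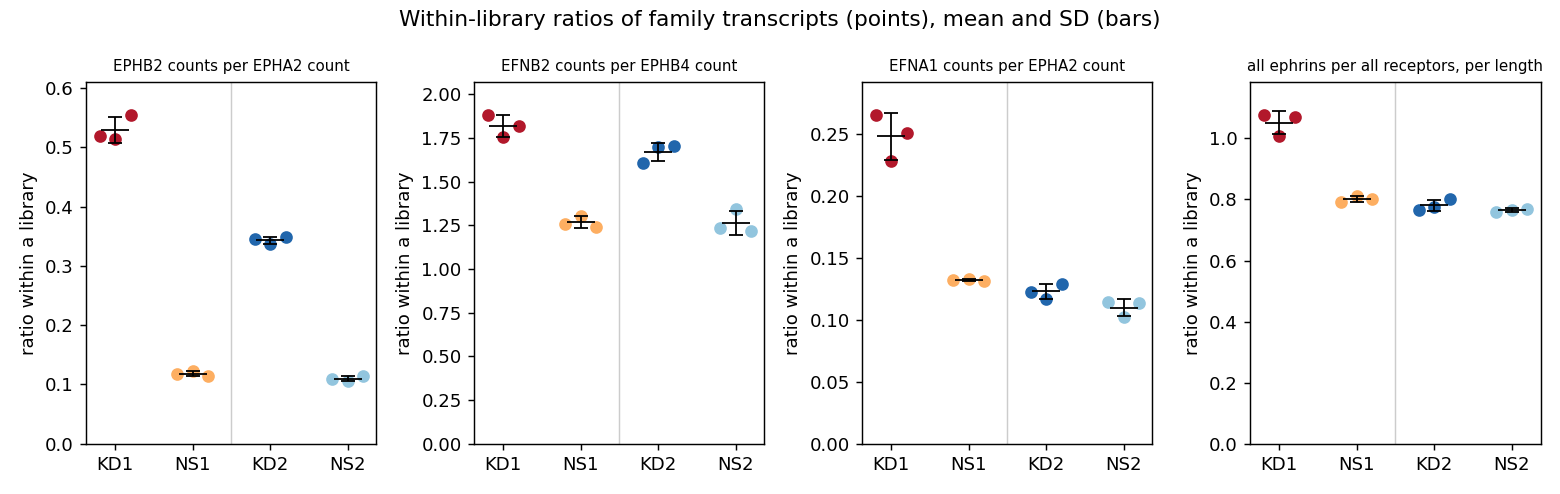
Ratios of family transcripts within each library (vertical axes from 0) in EP300 KD1, NS1, EP300 KD2 and NS2; points are libraries and bars the mean and SD of 3. The EPHB2 to EPHA2 ratio averages 0.529 and 0.343 in the knockdown lines, against 0.118 in NS1 and 0.110 in NS2.

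Of the 12 family genes outside the set, 8 had too few counts to be tested: EPHA6 and EPHA7 had 0 counts over all 12 libraries, EPHA3 had 1, EPHA10 had 3, EPHA8 had 5, EPHA5 had 7, EFNA2 had 15 and EPHB1 had 34. The other 4 passed the filter. EFNB3, a B ephrin known mainly from the nervous system, was at 9.43, 10.0 and 9.75 CPM in EP300 KD1, against 1.72, 1.91 and 1.66 CPM in NS1. With the second hairpin, EP300 KD2, it was at 3.12, 3.19 and 2.41 CPM, against 1.20, 1.02 and 1.63 CPM in NS2. EFNB3 rose with both hairpins, 5.55-fold in EP300 KD1 (2.47 ± 0.13; adjusted p = 3.94e-12, edgeR) and by 1.18 ± 0.15 on the log2 scale in EP300 KD2 (adjusted p = 1.74e-06, edgeR), and the difference between the hairpins was -1.29 ± 0.21 (adjusted p = 3.38e-05, edgeR). In NS2 against NS1 EFNB3 had -0.45 ± 0.16 (adjusted p = 0.0468, edgeR), a call lost in 14 of 22 alternative settings. Its rise in EP300 KD2 stayed called in all 24 alternative settings, the smallest value being 0.73.

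EFNA3, an A ephrin and a neighbour of EFNA1 and EFNA4 on chromosome 1, was at 7.44, 7.02 and 8.36 CPM in EP300 KD1, against 4.20, 4.30 and 4.17 CPM in NS1. In EP300 KD2 it was at 3.31, 2.88 and 3.92 CPM, against 4.61, 3.70 and 4.89 CPM in NS2, with overlap. EFNA3 rose by 0.85 ± 0.11 in EP300 KD1 (adjusted p = 2.77e-06, edgeR), as EFNA1 did, and its fall of 0.39 ± 0.12 in EP300 KD2 (adjusted p = 0.0115, edgeR) lost its call without replicate 3 of NS2 (-0.30; 0.0709) or replicate 2 of EP300 KD2 (-0.29; 0.0672). EFNA3 and EFNA4 share 44.7% and 15.0% of their exon bases with a read-through gene on the same strand, so their counts are uncertain. EFNA4 had log2 fold changes of 0.08 (adjusted p = 0.432, edgeR) and 0.01 (0.913), and EPHB6, a receptor without kinase activity, had 0.33 (0.197) and -0.08 (0.777).

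The genes through which Eph receptors and ephrins act were counted on 5 lists chosen by function. Receptor effectors are the adaptors, exchange factors, phosphatases and degradation factors that bind the receptors, and 26 of 30 were tested. In EP300 KD1, 15 were higher and 6 lower, with a median log2 fold change of 0.19, beside 32.6% of all genes higher and 32.3% lower. In EP300 KD2 5 were higher and 11 lower, with a median of -0.14, beside 27.9% and 29.9% of all genes, so that 16 of 26 called was near the 57.8% over all genes. The lists that follow are read against the same shares. VAV3, an exchange factor for small GTPases that Eph receptors recruit, fell by 2.12 ± 0.05 on the log2 scale in EP300 KD1 and by 2.53 ± 0.06 in EP300 KD2 (adjusted p = 8.22e-17 and 6.59e-17, edgeR). PIK3R1, a regulatory subunit of phosphoinositide 3-kinase, had log2 fold changes of 0.28 in EP300 KD1 and -0.60 in EP300 KD2, CBL, a ubiquitin ligase that drives receptor degradation, 0.37 and 0.25, and DOCK4, an exchange factor, 0.80 and 0.41, all past the threshold (highest adjusted p = 6.47e-06, edgeR).

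All 8 cytoplasmic kinases of the pathway were tested. In EP300 KD1 7 were higher and 1 lower (median 0.36), and in EP300 KD2 5 were higher and 1 lower (median 0.22), beside 32.6% and 27.9% of all genes higher. PTK2, which encodes focal adhesion kinase, rose by 0.62 ± 0.03 in EP300 KD1 and by 0.23 ± 0.03 in EP300 KD2, SRC by 0.40 and 0.22, ABL1 by 0.38 and 0.25, and the Rac and Cdc42 effector PAK1 by 0.19 and 0.41 (highest adjusted p = 7.51e-05, edgeR).

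The 10 partners of reverse signalling by B ephrins were all tested, with 4 higher and 5 lower in EP300 KD1 (median -0.11) and 2 higher and 5 lower in EP300 KD2 (median -0.09), beside 64.9% and 57.8% of all genes called. GRIP1, a PDZ scaffold for the tail of B ephrins, fell by 0.80 ± 0.08 in EP300 KD1 and by 1.23 ± 0.08 in EP300 KD2, RGS3, which links ephrin-B to G-protein signalling, by 0.53 and 0.84, and PTPN13, a phosphatase, by 0.20 and 0.43 (highest adjusted p = 0.000105, edgeR). SDCBP, which encodes the PDZ protein syntenin, rose by 0.60 in EP300 KD1 (adjusted p = 9.81e-13, edgeR) and had -0.07 in EP300 KD2 (0.0638).

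Of 12 proteases that cut receptors or ephrins or belong to the gamma-secretase complex, 11 were tested. In EP300 KD1 7 were higher and 2 lower (median 0.17), and in EP300 KD2 1 was higher and 7 lower (median -0.14), with 2 higher and 6 lower there under library totals. Of all genes, 32.6% were higher and 32.3% lower in EP300 KD1, and 27.9% higher and 29.9% lower in EP300 KD2. ADAM19 rose with both hairpins, by 2.24 ± 0.04 in EP300 KD1 and 1.18 ± 0.04 in EP300 KD2 (adjusted p = 2.21e-19 and 2.48e-14, edgeR). ADAM12 had log2 fold changes of 0.90 in EP300 KD1 and -0.25 in EP300 KD2, the membrane protease MMP14 0.21 and -0.50, and NCSTN, which encodes the gamma-secretase subunit nicastrin, 0.48 and -0.14, all past the threshold (highest adjusted p = 0.000418, edgeR). These 3 had the signs of EFNA1 and EFNB2 in each comparison.

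Of the 10 cell junction genes tied to Eph signalling in epithelium, 9 were tested. In EP300 KD1 2 were higher and 4 lower (median -0.26), and in EP300 KD2 2 were higher and 7 lower (median -0.32). The 6 of 9 called in EP300 KD1 were near the 64.9% over all genes, and in EP300 KD2 all 9 were called, beside 57.8%. CDH1, which encodes E-cadherin, was at 211 ± 0.744 CPM in EP300 KD1, against 383 ± 7.75 CPM in NS1, and at 181 ± 1.71 CPM in EP300 KD2, against 377 ± 3.75 CPM in NS2. It fell by 0.86 and 1.06 on the log2 scale (adjusted p = 9.63e-17 and 7.59e-18, edgeR). EPHA2 was also lower with both hairpins, as were 17.3% of all genes, and a link between CDH1 and EPHA2 was not tested. The tight junction gene CLDN1 fell by 2.90 in EP300 KD1 and 2.16 in EP300 KD2, CLDN4 by 0.56 and 0.82, and NECTIN1 by 0.30 and 0.26 (highest adjusted p of the 3 genes 8.75e-08, edgeR).

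**Figure D5:**
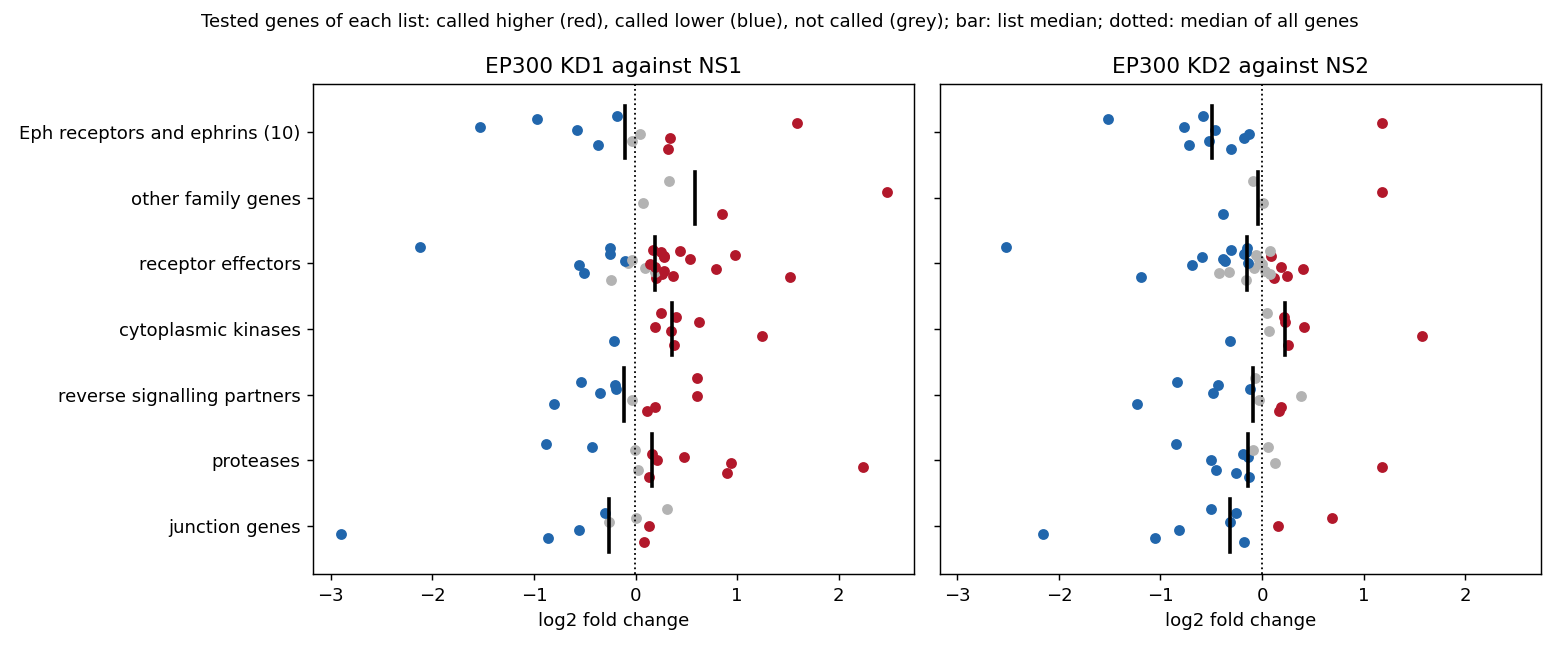
Log2 fold changes (horizontal axes) of the tested genes of each list, with the first hairpin in the left panel and the second in the right; red points were called higher, blue lower and grey not called, bars are list medians, and the dotted line is the median of all genes. The medians of the receptor effectors and of the proteases are above 0 in EP300 KD1, at 0.19 and 0.17, and below it in EP300 KD2, at -0.14 for both.

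Over the 12 libraries, some of the 10 genes had nearly the same pattern of log2 CPM. The correlation was r = 0.992 for EPHB3 and EFNA5, 0.975 for EPHB4 and EFNA5, 0.957 for EPHB4 and EFNB1 and 0.869 for EFNA1 and EFNB2. It was -0.959 for EPHB2 and EPHA2. The 12 points are 4 lines of 3 libraries, so these values mostly describe the order of 4 group means. By the same measure, the genes outside the set most like a member were AXL (0.999) and FBN2 (0.998) for EPHB2, SLC3A2 and SLC7A5 (0.995 each) for EPHA2, VGLL3 (0.990) and PCDH9 (0.974) for EPHA4, and SLC44A5 (0.997) and NEBL (0.996) for EPHB3. They were ABCB6 (0.993) and CLMN (0.987) for EPHB4, TTC9 (0.996) and CAMK2D (0.994) for EFNA5, KYNU (0.989) and TBC1D17 (0.988) for EFNA1, CNTN3 (0.992) and RB1CC1 (0.991) for EFNB2, and RFX2 (0.980) and MARCHF3 (0.976) for EFNB1. For EPHA1, which varied little, the closest were GCNA (0.908) and RNF113A (0.881).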

How the data were processed

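Total RNA of 12 MCF10AT libraries was sequenced after a stranded Illumina TruSeq mRNA preparation, per the labels' protocols. The authors deposited whole-number counts, not normalised, per RefSeq accession, made with HISAT2 2.1.0, hg38 and featureCounts, per the submitters' processing notes. For the strand setting and the annotation release, the sources used here give nothing. Of 29094 rows, 28130 took a symbol from a RefSeq table, 490 from GENCODE 29 and 474 none.

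Counts were fitted with edgeR 4.0.16 (quasi-likelihood, filterByExpr, TMM, 1 coefficient per group, all 12 libraries), with Benjamini-Hochberg adjustment over 13424 genes. SEs came from the F statistic. The common coefficient of variation was 0.030. The labels name no separate cultures for the libraries, and the p-values therefore describe library-to-library spread alone, which may be technical. No 2 libraries of a group were duplicates (chi-square per degree of freedom 1.84 to 4.48). Alternatives used limma 3.58.1 and DESeq2 1.42.0, other scalings and filters, other controls, and each library left out. The procedure was run on simulated data in which few genes were changed, so that run did not test scaling or calls where most genes move.

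The 10 genes were given by name, and they and the lists were chosen with earlier results of these data known. All 10 are named, with the other family genes, and up to 4 genes per list by smallest p. A further list is not reported here. Genes most like a member were the 2 with the highest Pearson r of log2 CPM (prior count 2). Motifs were searched in RefSeq promoter windows of 250 bases before and 50 after the gene start.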

Additional observations from a re-analysis of the deposited data

Results flagged for a closer look

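The contrast between the hairpins, EP300 KD2 against NS2 minus EP300 KD1 against NS1, passed edgeR's quasi-likelihood test for 9 of the 10 genes. Of all 13424 genes, 50.8% passed it, 21.6% above 0 and 29.2% below. EP300 itself had -0.18 (adjusted p = 0.00488, edgeR), a call lost with library totals as the scaling (-0.11, adjusted p = 0.0627). The 9 genes are listed here because the hairpins were made against the same gene. On the log2 scale the difference was -0.63 for EFNA1 and -0.52 for EFNB2, both of which fell in EP300 KD2 and rose in EP300 KD1. It was -0.49 for EFNB1, which was called in EP300 KD2 but not in EP300 KD1. It was -0.55 for EPHB3, -0.40 for EPHB4 and -0.35 for EFNA5, whose falls were larger in EP300 KD2, and -0.41 for EPHB2, whose gain was smaller there. EPHA4 had 0.76, with a larger fall in EP300 KD1 against the control of the same number. With both controls together the larger fall of EPHA4 was in EP300 KD2. EPHA1 had -0.17. No group of 4 or more libraries was at hand for a check of single outlying libraries.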

How the results depend on the processing

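There were 24 alternative settings per hairpin comparison. A log2 fold change was counted as kept if it stayed on its side of the threshold and, where called, kept its direction. For the 10 genes this held in 237 of 240 values for EP300 KD1 against NS1 and 232 of 240 for EP300 KD2 against NS2. It held in 189 of 210 values for the difference between the hairpins and 201 of 220 for NS2 against NS1. No called value of the 10 genes turned its direction in the settings for which it was computed. Some values that were not called changed sign, such as EPHA1 in EP300 KD1, at 0.04 against NS1 and -0.07 against NS2. The values that changed side of the threshold are those of EPHA1, EPHA2 (difference), EPHA4, EFNB1, and EFNA1 and EPHB4 between the controls, as given above. Outside the 10, EFNA4 in EP300 KD2 had 0.01 against NS2 but -0.23 against NS1 (adjusted p = 0.0209, edgeR), since EFNA4 was lower in NS2 than in NS1. That gap was -0.25 (adjusted p = 0.0359, edgeR) and lost its call in 7 of 22 alternative settings. Why the controls differ was not tested. The crossed controls were chosen after seeing the data. For the difference between the hairpins no value was computed in the fits of only the groups compared, of pooled controls or of crossed controls. With pooled controls the log2 fold change of EPHA4 was -0.82 in EP300 KD1 and -1.47 in EP300 KD2. That is the reverse of the order behind its called difference. Replicate numbers did not pair the libraries: over 18 same-numbered pairs the correlations of deviations ran from -0.04 to 0.05. With the replicate block, 8, 10, 10 and 6 of the 10 genes were called in EP300 KD1, EP300 KD2, the difference and NS2 against NS1, and 8748, 7802, 6858 and 3764 of all genes. Depth limits EPHA4 most, whose groups rest on 105 to 484 counts.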
